A study of Mus musculus with 8 samples.

Results

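Of the 19505 genes named on the arrays, 10 were followed, the Egr factors *Egr1*, *Egr2* and *Egr3* and the AP-1 subunits *Fos*, *Fosb*, *Fosl1*, *Fosl2*, *Jun*, *Junb* and *Jund*. They were taken by gene symbol, with the brightest row of a symbol, and all 10 of 10 were found. RNA came from primary mouse myoblasts of RhoA flox/flox mice, which also carried a Pax7-nGFP transgene (nuclear GFP under the Pax7 promoter) by which satellite cells of the hindlimb had been sorted by FACS. The labels give day 3 of differentiation and a treatment of 48 hours, and the study's text places day 3 at transduction, with harvest after it. The myotubes were transduced with an adenovirus carrying mCherry (Ad-mCherry, 4 arrays) or mCherry and the Cre recombinase (Ad-Cre-mCherry, 4 arrays), so that *RhoA* was deleted in culture after myotubes had formed. Both groups carried the floxed alleles and an adenovirus, and only one received Cre, so that an effect of Cre itself and an effect of RhoA loss cannot be told apart. The labels give replicate numbers 1 to 4 in each group, whereas the study's methods describe 3 independent cultures, so that p-values measure the spread between these arrays, part of which may be technical.

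Most Egr and AP-1 factors are encoded by immediate early genes, which are transcribed within minutes of a stimulus such as serum, growth factors, stretch or depolarisation, from factors already present in the cell, and whose RNA is mostly short-lived. Not every member is of this kind, and most cells hold Jund without a stimulus. Egr1, Egr2 and Egr3 are zinc finger proteins that bind GC-rich sites, and the Nab proteins are their corepressors. AP-1 is a dimer of a Jun protein (Jun, Junb or Jund), alone or with a Fos protein (Fos, Fosb, Fosl1 or Fosl2). RhoA, through actin, and MAP kinases, through ternary complex factors, both act on serum response factor (Srf), which binds the CArG box of promoters such as those of *Egr1*, *Egr2* and *Fos*. The comparison between groups thus asks whether these factors had another level in myotubes given Cre.

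Start-proximal DNA of the factors is shown because 7 of the 10 genes moved together over the arrays, as described next. RefSeq promoter entries on GRCm38.p6 matched 7 of 10 members. For *Fos*, *Fosb*, *Jun* and *Junb*, which moved together, and for *Fosl2*, which did not, the 120 bases before the annotated start are given 5′ to 3′ on the gene's strand. For *Egr2*, which has 5 annotated starts, only 30 bases around each CArG box are given. The entry of *Jund*, the other member matched, held none of the motifs in its 120 bases and is not printed. Capitals mark the motifs searched on both strands, which were the CArG box, the cyclic AMP element TGACGTCA and its core TGACG, the variant site TGACATCA, the AP-1 site TGANTCA, the box CCAAT, the GC box GGGCGG, the Egr-type site GCGNGGGCG and the TATA element TATAA (in *Egr2* the CArG box alone).
Fos (chr12:85473770-85473889, plus strand): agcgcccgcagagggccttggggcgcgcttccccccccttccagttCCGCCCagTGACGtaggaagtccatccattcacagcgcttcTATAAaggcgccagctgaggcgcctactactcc
Fosb (chr7:19310046-19310165, minus strand): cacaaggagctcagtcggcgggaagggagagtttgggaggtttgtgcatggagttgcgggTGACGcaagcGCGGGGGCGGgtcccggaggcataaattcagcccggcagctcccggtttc
Jun (chr4:95052223-95052342, minus strand): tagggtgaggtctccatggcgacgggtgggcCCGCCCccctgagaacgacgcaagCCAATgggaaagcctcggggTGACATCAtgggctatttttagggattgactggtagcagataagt
Junb (chr8:84978749-84978868, minus strand): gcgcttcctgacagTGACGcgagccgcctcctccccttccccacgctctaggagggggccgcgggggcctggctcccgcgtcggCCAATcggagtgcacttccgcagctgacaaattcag
Fosl2 (chr5:32136352-32136471, plus strand): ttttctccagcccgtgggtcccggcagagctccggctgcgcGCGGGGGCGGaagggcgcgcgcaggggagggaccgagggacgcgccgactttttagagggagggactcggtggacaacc
Egr2, CArG box before the second start (chr10:67537484-67537513, plus strand): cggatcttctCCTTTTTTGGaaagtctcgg
Egr2, CArG box before the third start (chr10:67537787-67537816, plus strand): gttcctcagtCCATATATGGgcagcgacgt

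The core of the cyclic AMP response element, TGACG, stood in the *Fos*, *Fosb* and *Junb* stretches and was found in 11.6% of the 32817 promoter stretches of this length. *Jun* held TGACATCA, the variant AP-1 site of its own promoter, found in 2.11% of all stretches. *Fos* held TATAA (11.9% of all stretches), and *Jun* and *Junb* held CCAAT (21.3%). The Egr-type site GCGNGGGCG, which overlaps the GC box GGGCGG by its last bases, stood in *Fosb* and *Fosl2* (3.36% of all stretches). The GC box stood in these stretches and, on the opposite strand, in *Fos* and *Jun* (26.5% of all stretches). TGANTCA was found in 3.41% of all stretches and TGACGTCA, which contains TGACG, in 1.24%. A CArG box stood before 3 of the 5 *Egr2* starts, against 0.75% of all stretches, and those 3 starts share 2 boxes, because the third and the fourth start share theirs. The *Fos* stretch held none, but only the 120 bases before each start were searched. A box further away would not be seen, so that its absence here does not show that *Fos* lacks one. Such matches are letters in the DNA and do not show binding in these cells.

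None of the 10 factors differed between Ad-Cre-mCherry and Ad-mCherry beyond the spread of the arrays. Across all 19505 genes the deposited log2 values were fitted with limma, and p-values were adjusted over all genes by Benjamini-Hochberg. No member passed an adjusted p of 0.05 (0 of 10, with 0 of 10 at an unadjusted p under 0.05), and no other gene did either (0% of all genes, with 1252 at an unadjusted p under 0.05 and a smallest adjusted p of 0.680). The thresholds of the study (unadjusted p under 0.05, with a fold change of 1.2 or more) were passed by 0 members, against 2.92% of all genes upwards and 3.50% downwards. Values of the groups overlapped in all 10 members, whereas they did not overlap in 3.75% of all genes. Of the members, 3 were higher and 7 lower with Ad-Cre-mCherry, with a median log2 fold change of -0.20 against 0 over all genes.

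The floxed gene itself was read first. *Rhoa* had log2 values of 11.16, 11.39, 11.08 and 11.39 in Ad-mCherry replicates 1 to 4 and of 9.99, 10.87, 10.87 and 10.23 in Ad-Cre-mCherry. The groups did not overlap (log2 fold change -0.77 ± 0.23 (SE, n = 4 per group), two-sided exact permutation p = 0.0286, the smallest that 4 against 4 allows), but the adjusted p over all genes was 0.729 in limma. Within replicate numbers the difference was -1.17, -0.52, -0.21 and -1.16, smallest in replicate 3. The floxed part is a single exon, and whether the probes of this row lie within it is unknown here, so that it checks the labels only in part.

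*Egr1*, the best known of the Egr factors, was at 16.04, 16.58, 17.15 and 16.04 on the log2 scale in Ad-mCherry replicates 1 to 4. In Ad-Cre-mCherry it was at 15.05, 16.20, 17.40 and 15.72. The highest array of either group was replicate 3, and the ranges overlapped, with a log2 fold change of -0.36 ± 0.47 (SE, n = 4 per group, 95% interval -1.42 to 0.70, limma adjusted p = 0.911).

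*Egr2*, known for its role in the myelinating Schwann cell and the hindbrain, spanned far more. Its log2 values were 9.96, 11.09, 12.72 and 10.17 in Ad-mCherry and 8.03, 9.69, 13.52 and 9.35 in Ad-Cre-mCherry. Ad-Cre-mCherry thus held both the lowest and the highest of the 8 arrays. The log2 fold change was -0.84 ± 1.09 (SE, n = 4 per group, 95% interval -3.29 to 1.61, limma adjusted p = 0.910).

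*Egr3*, which is required in the mouse for muscle spindles, had 3 rows on the array. On the brightest it was at 5.07, 4.75, 5.97 and 5.66 in Ad-mCherry and at 4.43, 4.77, 6.21 and 5.18 in Ad-Cre-mCherry. The log2 fold change on this row was -0.22, and on the other rows 0.16 and -0.20, so that the rows disagreed in sign. The IDs of the brightest row and of the row at -0.20 mark them as not mapped to the genome, which limits what their values say of *Egr3*. The ID of the row at 0.16 has no such mark. Array medians were between 4.78 and 4.87, and *Egr3* lay close to them.

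*Fos*, the prototype of the Fos subunits, was at 8.14, 10.58, 12.13 and 10.26 in Ad-mCherry and at 7.04, 9.88, 12.48 and 9.72 in Ad-Cre-mCherry. Replicate 3 was again highest and replicate 1 lowest in both groups. The group means differed by -0.50 ± 1.12 (SE, n = 4 per group, 95% interval -3.03 to 2.03, limma adjusted p = 0.954).

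*Fosb*, a second full-length Fos subunit, was at 4.98, 4.34, 7.20 and 6.07 in Ad-mCherry. In Ad-Cre-mCherry it was at 4.46, 4.90, 7.42 and 5.64. Its means nearly coincided (log2 fold change -0.04 ± 0.74, SE, n = 4 per group, limma adjusted p = 0.994).

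*Fosl1* (Fra-1), a Fos subunit without the strong activation domain, was at 4.97, 5.31, 5.01 and 4.81 in Ad-mCherry and at 7.09, 5.51, 5.19 and 4.92 in Ad-Cre-mCherry. It was the only member higher with Ad-Cre-mCherry in 4 of 4 replicate numbers, and the array of replicate 1 stood at 7.09 where the others of both groups lay between 4.81 and 5.51. The log2 fold change was 0.65 ± 0.42 (SE, n = 4 per group, 95% interval -0.30 to 1.60, limma adjusted p = 0.814, exact permutation p = 0.229), and it was 0.18 without Ad-Cre-mCherry replicate 1.

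*Fosl2* (Fra-2), the other such subunit, was at 6.04, 5.99, 5.18 and 5.50 in Ad-mCherry and at 5.10, 5.50, 5.48 and 5.60 in Ad-Cre-mCherry. Its log2 fold change was -0.26 ± 0.23 (SE, n = 4 per group, 95% interval -0.77 to 0.26, limma adjusted p = 0.862). It had no replicate that was high or low in both groups.

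*Jun* was at 9.63, 10.15, 11.11 and 10.98 in Ad-mCherry and at 8.54, 10.13, 11.38 and 11.05 in Ad-Cre-mCherry. *Junb*, often a weaker activator than Jun and in places its antagonist, was at 4.97, 5.42, 7.11 and 6.01 in Ad-mCherry and at 4.86, 5.93, 7.45 and 5.82 in Ad-Cre-mCherry. In both genes replicate 3 was the highest array of either group and replicate 1 the lowest. The log2 fold changes were -0.19 ± 0.60 for *Jun* and 0.14 ± 0.59 for *Junb* (SE, n = 4 per group, limma adjusted p = 0.968 and 0.979).

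*Jund*, the Jun subunit that most cells hold without a stimulus, had the smallest range of the members, 0.62 on the log2 scale. It was at 7.35, 6.94, 7.23 and 7.56 in Ad-mCherry and at 7.05, 7.35, 7.44 and 7.25 in Ad-Cre-mCherry. Its log2 fold change was 0.00 ± 0.18 (SE, n = 4 per group, 95% interval -0.40 to 0.41, limma adjusted p = 0.999).

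**Figure D1:**
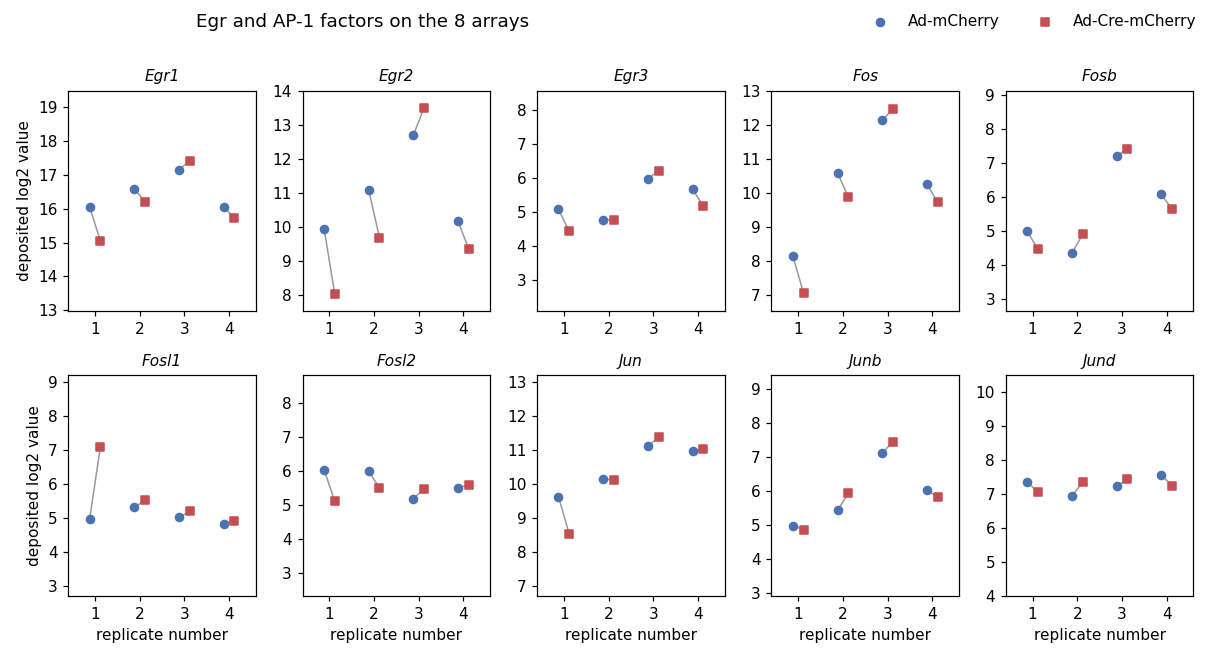
Deposited log2 value (y axis, each panel spanning the same number of log2 units) of each factor by replicate number (x axis), with Ad-mCherry as circles, Ad-Cre-mCherry as squares and a line between the arrays of a number. The 2 groups overlap in every panel, and replicate 3 is highest in both groups for *Egr1*, *Egr2*, *Egr3*, *Fos*, *Fosb*, *Jun* and *Junb*.

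The width of the intervals differed widely between members. With 4 arrays a group, the 95% interval of *Jund* reached 0.41 on the log2 scale, whereas that of *Fos* spanned -3.03 to 2.03 and that of *Egr2* -3.29 to 1.61. The intervals of *Fos* and *Egr2* narrowed once the replicate number was a block, to -1.02 to 0.02 for *Fos* and -1.64 to -0.04 for *Egr2*. The blocked fit called 0 of 10 members at an adjusted p of 0.05, against 0.323% of all genes (63 genes). The thresholds of the study were passed in the blocked fit by *Egr2* alone (log2 fold change -0.84 ± 0.36, unadjusted p = 0.0415, limma adjusted p = 0.313), against 6.54% of all genes upwards and 8.20% downwards. *Fos* (limma adjusted p = 0.363) and *Fosl1* (0.372) followed it with the block.

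**Figure D2:**
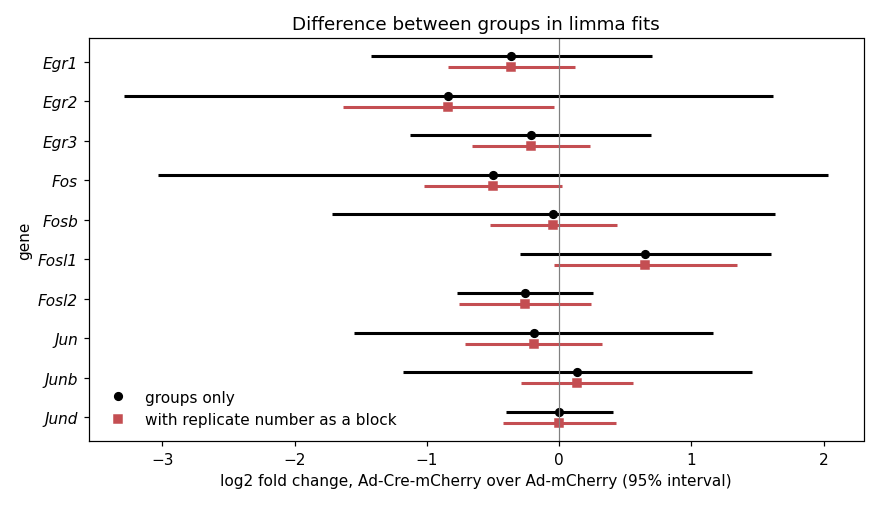
Log2 fold change of Ad-Cre-mCherry over Ad-mCherry (x axis) for each factor (y axis) from limma, with 95% intervals, for the groups only (black circles) and with the replicate number as a block (red squares), n = 4 arrays per group. Only the blocked interval of *Egr2* leaves out 0, and the intervals without the block all include it.

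The differences within replicate numbers turned with the number. In replicate 1, 9 of 10 members were lower with Ad-Cre-mCherry, against 50.9% of all genes. In replicate 3, 10 of 10 were higher, against 49.3% of all genes, and 9 of 10 did both, against 22.1%. The members share arrays and vary together, so that these counts are not counts of independent genes, and no test was made of them. *Egr2* went furthest, with differences of -1.93, -1.40, 0.80 and -0.82 in replicates 1 to 4. *Fos* gave -1.10, -0.70, 0.35 and -0.54, and *Egr1* gave -0.99, -0.38, 0.25 and -0.32. These 3 genes were thus lower with Ad-Cre-mCherry in replicates 1, 2 and 4 and higher in replicate 3. The *Jun* difference lay almost wholly in replicate 1 (-1.09, then -0.02, 0.27 and 0.07). *Junb* (-0.11, 0.51, 0.34 and -0.19), *Fosb* (-0.52, 0.56, 0.22 and -0.43) and *Jund* (-0.30, 0.41, 0.21 and -0.31) were higher in replicates 2 and 3 and lower in the others. *Egr3* gave -0.64, 0.02, 0.24 and -0.48 and *Fosl2* -0.94, -0.49, 0.30 and 0.10. *Fosl1* alone was higher in replicate 1, by 2.12, and then by 0.20, 0.18 and 0.11. Replicate 3, where all 10 were higher, was also where *Rhoa* differed least between the arrays, and the part of one in the other was not tested.

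**Figure D3:**
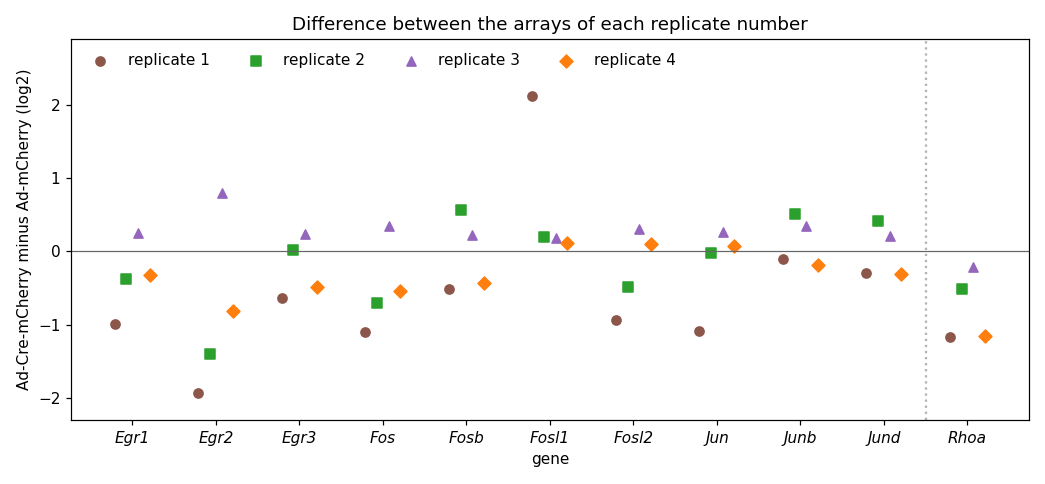
Ad-Cre-mCherry minus Ad-mCherry on the log2 scale (y axis) for each factor and, right of the dotted line, for *Rhoa* (x axis), with a point for each replicate number. All 10 factors lie above 0 in replicate 3 (triangles), 9 of 10 lie below 0 in replicate 1 (circles), and *Rhoa* lies below 0 in all 4.

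The large variation of these factors was between replicate numbers. In a limma F test of the replicate number, with group in the model and p-values adjusted over all genes, 7 of 10 members passed 0.05, against 12.0% of all genes (2349 genes). All 7 had their highest mean in replicate 3, as did 24.3% of the genes that passed (24.2% of all genes, and 2.93% of all genes both passed and were highest there). Of the 7, 6 had their lowest mean in replicate 1, as did 39.4% of the genes that passed. *Fos* had replicate means of 7.59, 10.23, 12.31 and 9.99, a span of 26.3-fold (limma adjusted p = 9.26e-05). *Egr2* spanned 17.4-fold (9.00, 10.39, 13.12 and 9.76, limma adjusted p = 0.00213). *Fosb* spanned 6.45-fold (4.72, 4.62, 7.31 and 5.86, limma adjusted p = 8.71e-04), *Junb* 5.15-fold (limma adjusted p = 0.00168) and *Jun* 4.47-fold (limma adjusted p = 0.00571). *Egr1* spanned 3.32-fold, on means of 15.55, 16.39, 17.28 and 15.88 (limma adjusted p = 0.0153), and *Egr3* 2.53-fold (limma adjusted p = 0.0244). *Fosl1* (limma adjusted p = 0.327), *Fosl2* (0.840) and *Jund* (0.904) did not pass. The count rested in part on replicate 3: without its arrays 2 of 10 passed, *Fos* and *Jun*, against 7.78% of all genes.

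The replicate number took 95.5% of the sum of squares of *Fos* over the 8 arrays and the group 2.12%. It took 96.5% for *Junb*, 95.9% for *Fosb*, 90.1% for *Jun*, 87.5% for *Egr3*, 84.7% for *Egr2* and 84.1% for *Egr1*. In the median gene it took 52.4%, and the group 9.64%. The group's share was highest for *Fosl1* (22.3%, with 40.0% for the replicate number) and *Fosl2* (16.9%, with 22.1%), which ranged over 2.28 and 0.94 on the log2 scale.

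**Figure D4:**
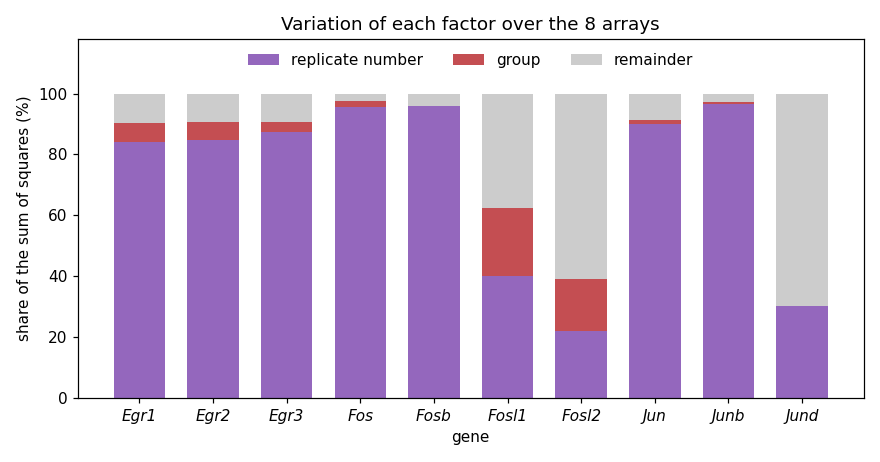
Share of each factor's sum of squares over the 8 arrays (y axis, percent) taken by the replicate number, the group and the remainder (x axis, genes). The replicate number takes 84.1% or more in the 7 factors that passed its test, and 40.0% or less in *Fosl1*, *Fosl2* and *Jund*.

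Correlations describe how closely the 7 factors varied together over the arrays. Their 21 pairwise Pearson correlations over the 8 arrays ran from 0.713 to 0.983, with a median of 0.842, and the 24 pairs that involve *Fosl1*, *Fosl2* or *Jund* ran from -0.802 to 0.613, with a median of -0.128. With group means removed, the first range was 0.713 to 0.985. The 8 arrays share 4 replicate numbers, so that these are descriptions and no test was made. The 7 were grouped by the F test and all had their highest mean in the same replicate, so that high correlations among them, and the contrast with the other pairs, in large part restate that grouping.

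Likeness was measured as Pearson's r over the 8 arrays against the 9474 genes at or above the median gene's level, with Gm, Rik and LOC symbols left out. The 3 most alike were taken for each member. The highest of so many correlations over 8 arrays are near 1 by selection, for *Jund* too. They are descriptions, no test was made, and they do not show shared regulation. *Egr1* and *Egr2* were each other's nearest (r = 0.983), with *Jarid2*, a subunit of Polycomb complexes, next for both (0.982 and 0.969). They were followed by the muscle kinase gene *Alpk2* for *Egr1* (0.977) and by *Acad11* for *Egr2* (0.966). *Egr3* was nearest *Fosb* (0.972), then *Esrrg*, an orphan nuclear receptor (0.971), and *Hnrnph3* (0.969). *Fos* was nearest *Ppp2r3a*, a regulatory subunit of protein phosphatase PP2A (0.990), *Coq8a* (0.982) and *Filip1l* (0.980). *Fosb* was nearest *Dyrk1b* (0.982), *Ubac1* (0.974) and *Pfkm*, the muscle phosphofructokinase (0.972). *Jun* was nearest *H1f2* (0.990), *Zfp51* (0.990) and *Galnt5* (0.986), and *Junb* was nearest *Bcs1l* (0.976), *Ubac1* (0.974) and *Cntnap5a* (0.973). The nearest to *Fosl1* were *Plppr3* (0.986), *Entr1* (0.980) and *Ilf2* (0.980), to *Fosl2* *Smad5* (0.971), *Lats1* (0.969) and *Dtd2* (0.966), and to *Jund* *Bcl7b* (0.965), *Zdhhc6* (0.955) and *Tmem70* (0.944).

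Other immediate early genes moved between replicate numbers in the same way in part. Of 35 listed, 16 passed the F test, 12 of these were highest in replicate 3 and 10 were lowest in replicate 1. Over all genes 12.0% passed, and of those that passed 24.3% were highest in replicate 3 and 39.4% lowest in replicate 1. *Zfp36*, whose product speeds the decay of AU-rich messages, had replicate means of 9.04, 9.99, 13.78 and 12.64. *Ier2* had 5.62, 6.72, 10.08 and 7.98. *Nr4a1*, an orphan nuclear receptor, had 6.92, 8.35, 9.52 and 7.74, and *Dusp1*, a phosphatase of MAP kinases, had 9.91, 12.14, 12.59 and 12.04. *Ccn2*, a matricellular gene, went the other way, with 7.65, 6.85, 5.44 and 5.48. Between groups, 0 of 35 passed an adjusted p of 0.05, and 0 passed the thresholds of the study upwards and 3 downwards, against 2.92% and 3.50% of all genes. These were *Ccn1*, a matricellular gene (log2 fold change -1.65, from 12.28, 13.95, 13.29 and 12.43 to 10.24, 11.97, 12.30 and 10.86), the polo-like kinase *Plk2* (-1.19) and *Ptgs2*, the inducible cyclooxygenase (-1.41). *Ccn1* fell with the replicate number as a block (limma adjusted p = 0.0314), alone of the list, and with the block 6 of 35 passed the thresholds of the study upwards and 11 downwards, against 6.54% and 8.20% of all genes.

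**Figure D5:**
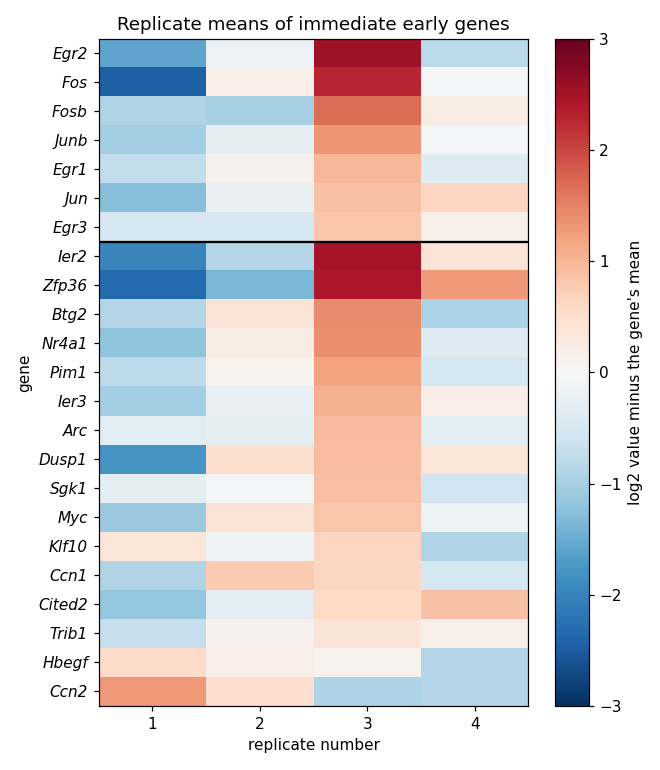
Mean log2 value of each replicate number minus the gene's mean (colour), by replicate number (x axis), for the 7 factors (above the line) and the 16 other immediate early genes (below it) that passed the F test of the replicate number. Replicate 3 is the highest column for the 7 factors and for 12 of the 16 others, and *Ccn2* is lowest there.

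The corepressor and relative list (*Egr4*, *Nab1*, *Nab2* and *Wt1*) had 0 of 4 past any threshold between groups or between replicate numbers, and the smallest p between groups were those of *Nab2* (log2 fold change 0.33) and *Wt1* (0.15). Of the AP-1 partners, 11 of 13 were matched. *Atf3*, a stress-induced partner of Jun, had replicate means of 9.93, 10.75, 13.00 and 10.58. It was among 4 of 11 that passed the F test, with *Jdp2*, *Maff* and *Mafk*, against 12.0% of all genes. *Atf3* and *Mafk* were highest in replicate 3, *Jdp2* was highest in replicate 2, and *Maff* was highest in replicate 1 and lowest in replicate 3. Between groups 2 passed the thresholds of the study upwards and 1 downwards, against 2.92% and 3.50% of all genes, and 0 an adjusted p of 0.05. *Maf* was at 4.56, 4.70, 5.31 and 4.86 in Ad-mCherry and at 6.04, 5.41, 5.89 and 5.87 in Ad-Cre-mCherry, without overlap (log2 fold change 0.95, limma adjusted p = 0.729). *Atf2*, which pairs with Jun at TGACG-type sites, was at 9.76, 9.77, 9.23 and 9.51 in Ad-mCherry and at 7.73, 8.76, 9.06 and 7.92 in Ad-Cre-mCherry, also without overlap (-1.20, limma adjusted p = 0.729). *Mafg* was 0.54 higher (limma adjusted p = 0.739).

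Upstream of these genes, a list of 9 held *Srf*, the coactivators *Mrtfa* and *Mrtfb*, and the ternary complex factors *Elk1*, *Elk3* and *Elk4*. It also held *Creb1*, *Mef2a* and *Mef2d*, which are of other families. Of these, 0 of 9 passed either threshold in the fit of the groups alone. With the block, 3 passed the thresholds of the study downwards (*Mrtfa*, *Elk3* and *Mef2a*), against 8.20% of all genes. The F test of the replicate number was passed by 2 of 9 (*Elk3* and *Mef2a*), against 12.0% of all genes. *Srf* had a log2 fold change of 0.05, and the smallest p were those of *Mrtfa* (-0.46) and *Mrtfb* (-0.37), coactivators that actin holds. Of the MAP kinase list 17 of 22 were matched, 0 passed an adjusted p of 0.05, and 1 passed the thresholds of the study upwards and 4 downwards, against 2.92% and 3.50% of all genes (with the block 1 and 6, against 6.54% and 8.20%). In the fit of the groups alone they were *Map2k3*, a kinase of p38 (1.01), and *Braf* (-0.95), *Map2k5* (-0.70), *Mapk8*, which codes for JNK1 (-0.87), and *Rps6ka5* (-0.71). None of the 17 passed the F test of the replicate number.

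Known targets of the factors were counted next. Of AP-1 targets, 11 of 13 were matched and 0 passed either threshold in the fit of the groups alone, with the smallest p for *Cd44* (-0.41) and *Mmp13* (0.35). With the block *Timp1* alone passed the thresholds of the study (log2 fold change -0.65, limma adjusted p = 0.295), against 8.20% of all genes downwards. In the F test 3 of 11 passed, against 12.0% of all genes, and 0 of the 3 were highest in replicate 3. *Ccl2* had replicate means of 8.54, 7.08, 5.80 and 5.62, *Il6* was lowest in replicate 3 and *Timp1* was highest in replicate 4. Of Egr targets, 7 of 9 were matched and 0 passed between groups, and the smallest p were those of *Thbs1* (log2 fold change -1.66, unadjusted p = 0.223) and *Fn1* (-0.77). With the block both passed the thresholds of the study, against 8.20% of all genes downwards. Each was lower in 4 of 4 replicate numbers, at limma adjusted p = 0.0598 for *Thbs1* and 0.200 for *Fn1*. In the F test 3 of 7 passed (*Thbs1*, *Fgf2* and *Fn1*), against 12.0% of all genes, and 0 of them were highest in replicate 3.

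The study reports no effect of *RhoA* deletion on Srf targets in cultured myotubes, naming *Egr1* with *Acta1*, *Cnn2*, *Myl9* and *Ptgs2*. The 4 genes named with *Egr1* were read in the same way. *Myl9*, a myosin light chain of smooth muscle type, had replicate means of 11.15, 9.98, 6.91 and 7.10 (F test, limma adjusted p = 3.96e-04), lowest in replicate 3 where *Egr1* was highest. *Cnn2*, an actin-binding calponin, was at 5.28, 4.50, 3.53 and 3.43 (limma adjusted p = 0.0422). *Ptgs2* is of this set too and was the only one of the 4 past the thresholds of the study (log2 fold change -1.41, unadjusted p = 0.0185, limma adjusted p = 0.738). It was lower with Ad-Cre-mCherry in 4 of 4 replicate numbers, with differences of -3.10, -1.26, -0.77 and -0.51. *Acta1*, the skeletal actin, had a log2 fold change of -0.15 between groups, and *Myl9* and *Cnn2* of 0.24 and 0.45 (limma adjusted p = 0.982 and 0.911).

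Markers of the cells moved between replicate numbers and between groups as well. The 12 myotube markers had a mean log2 value of 15.67 to 15.92 over the Ad-mCherry arrays and of 15.08 to 15.65 over the Ad-Cre-mCherry arrays. In the F test 6 of 12 passed, against 12.0% of all genes, a share that stands beside the F test counts below too. Of these 6, 4 were highest in replicate 3, as were 24.3% of the genes that passed. Over the whole list 8 of 12 were highest in replicate 3, against 24.2% of all genes. Among the 6, *Ckm*, the muscle creatine kinase, had replicate means of 9.92, 11.87, 14.56 and 12.24, highest in replicate 3. *Mymx*, the fusion peptide gene, had 12.69, 9.29, 6.71 and 9.86, lowest there. Between groups *Myog* (-1.48) and *Myh3* (-1.23) passed the thresholds of the study, against 3.50% of all genes downwards. In the blocked fit these genes and *Mymx* (-1.71) fell at an adjusted p of 0.05, which 0.323% of all genes passed in either direction. The limma adjusted p was 0.0396 for each (0.853 for *Mymx* without the block), and each was lower in 4 of 4 replicate numbers. Satellite cell and myoblast markers averaged 7.65 to 8.33 in Ad-mCherry and 7.01 to 7.79 in Ad-Cre-mCherry, and 3 of 7 passed the F test. Between groups 6 of 7 were lower with Ad-Cre-mCherry (median log2 fold change -0.48). Without the block 0 of 7 passed the thresholds of the study, and with it 6 of 7 passed downwards, against 8.20% of all genes. *Pax7*, which defines satellite cells, lay between 3.45 and 4.03 on all 8 arrays, below the array medians, although the tissue label of the samples names adult muscle stem cells. Fibroblast markers averaged 4.37 to 5.15 over all arrays (2 of 7 passed), cycling cell markers 3.96 to 6.11 (2 of 4 passed, and 4 of 4 were lower with Ad-Cre-mCherry, with a median of -0.57 and 1 past the thresholds of the study, *Ccna2*), macrophage and leukocyte markers 3.83 to 4.25 (0 of 5), endothelial markers 3.58 to 4.21 (0 of 4) and Schwann cell markers 4.21 to 4.67 (0 of 2), against array medians of 4.78 to 4.87. No list stood at 0, since these log2 values have no zero. The part of these marker changes in the replicate and group differences of the Egr and AP-1 factors was not tested, and in bulk RNA a change in the share of cells and in the RNA per cell cannot be told apart.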

How the data were processed

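Total RNA of 8 myotube samples was amplified, labelled with biotin and hybridised to Affymetrix mouse arrays. The deposited values are log2 expression values made by the authors with the RMA algorithm (background correction, quantile normalization and summary per row) in Affymetrix Expression Console (version not stated in the sources). The methods name one array design and the row IDs are of another mouse design. Of 22206 rows, 19572 had 1 gene symbol in the platform table, 0 had several and 2634 were unnamed here. The brightest row was kept per symbol, which left 19505 genes. RMA values hold no depth or detection call, so that the number of arrays limits the precision.

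Groups were compared with limma 3.58.1 in R 4.3.3 (lmFit and eBayes, Benjamini-Hochberg adjustment over all genes, threshold 0.05), without a block, as the study's methods name none. The thresholds of the study, and a blocked limma fit on the replicate number, were applied beside it. Samples with the same number deviated together from their group means (r between 0.516 and 0.623 for the 4 numbers, against -0.424 to 0.128 between different numbers), so the numbers were taken to pair the samples. This comes from the data, not from a statement in the labels. Single values were also compared by two-sided exact permutation tests. The fits were tested on simulated data.

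Named genes were the 10 members, *Rhoa*, the Srf targets that the study names, the members of each pathway list past the thresholds of the study (otherwise those with the 2 smallest p), and the 3 genes most alike each member. Others named (replicate means of list and marker genes) were chosen after their values were seen. The members and lists were chosen with earlier results of these data known. Alternatives were the block, another quantile normalization, median centring, a filter on low values, the mean of all rows of a symbol, trend and robust settings, array weights, unequal variances, and leaving out replicates or arrays.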

Additional observations from a re-analysis of the deposited data

How the results depend on the processing

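With 4 arrays a group, the limits are the spread between replicate numbers and the number of cultures. No member passed an adjusted p under any of the alternatives. The count of members past the thresholds of the study was 0, and 1 with the replicate block (*Egr2*). It ranged from 0 to 1 when a replicate number or a single array was left out, and the 1 was *Egr2* without replicate 3 (log2 fold change -1.38) or without Ad-Cre-mCherry replicate 3 (-1.96). Over all genes the blocked fit moved the count at an adjusted p of 0.05 from 0 to 63 and at the thresholds of the study from 1252 to 2875, and unequal variances moved the latter to 872. The member median of -0.20 ranged from -0.57 to 0.13 when replicates or arrays were left out, and turned positive without replicate 1, Ad-Cre-mCherry replicate 1 or Ad-mCherry replicate 3.

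The sign of members with small differences turned in some settings, none of them past a threshold. *Fosb* was 0.0783 with array weights. With replicates or arrays left out, *Egr3* ranged from -0.57 to 0.0242, *Fos* from -1.40 to 0.42, *Fosb* from -0.65 to 0.48, *Jun* from -0.56 to 0.39, *Junb* from -0.34 to 0.55 and *Jund* from -0.13 to 0.11, while *Egr1* (-0.80 to -0.01), *Egr2* (-1.96 to -0.13), *Fosl1* (0.16 to 0.91) and *Fosl2* (-0.44 to -0.03) kept their sign. The count in the replicate number test was 7 with a filter, with trend and robust settings and with median centring. It was 7 with another quantile normalization and 6 with the mean of all rows (*Egr3* lost), both added after seeing the data. Leaving out replicates or arrays, also added after seeing the data, gave 2 to 8. It was 2 without replicate 3 (*Egr1*, *Egr2*, *Egr3*, *Fosb* and *Junb* lost), 5 without Ad-Cre-mCherry replicate 3, and 8 without Ad-mCherry replicate 1, with *Fosl1* added. The cause of these changes was not tested.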
